A study of Mus musculus with 6 samples.

Results

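p53 is the transcription factor that cells activate after DNA damage and other stress, and its target genes carry out cell-cycle arrest, apoptosis, DNA repair and feedback on p53 itself. The p53 pathway is also known as a barrier to the reprogramming of fibroblasts into induced pluripotent stem cells (iPSCs). In mouse pluripotent cells p53 can act on Nanog and favour differentiation. The genes described here are a fixed list of p53 and 9 of its targets, of which 8 targets are analysed: Cdkn1a, Mdm2, Trp53inp1, Ccng1, Bbc3, Zmat3, Phlda3 and Aen. The other 2 genes of the list of 10 are not analysed here. The 8 genes have 17 probe sets annotated to one of them alone, of 45037 analysed, and the array annotation names 18193 genes in this way.

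Transcripts of undifferentiated mouse iPSCs were profiled on 1 array for each of 6 clones, of which clones 1, 2 and 3 were (−)/(+) and clones 4, 5 and 6 were (+)/(+). All 6 came from Nanog-GFP mouse embryonic fibroblasts transduced with retroviruses for Oct3/4, Sox2, Klf4, c-Myc and a dsRed reporter, and were grown on SNL feeder cells. All were maintained with 3i, the inhibitors CHIR99021 (against GSK3β), PD184352 (against the MEK-ERK cascade) and SU5402 (against the FGF receptor), and only the (+)/(+) cells also received 3i while they were being reprogrammed. Each clone is a line from 1 picked colony and was measured on 1 array. The spread between arrays therefore holds differences between clones together with those of culture and measurement. The comparison asks whether 3i during reprogramming left a difference in p53 target expression in clones that were later cultured alike.

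The arrays gave MAS 5.0 signals on a linear scale, all scaled by the authors to the same trimmed mean, with medians of 74.3 to 75.7 in the (−)/(+) and 64.1 to 70.2 in the (+)/(+) clones. The 22518 probe sets with a mean log2(signal + 16) above the median of all (a signal near 67.2) were tested with limma, and a call means a Benjamini-Hochberg adjusted p under 0.05 over all of them. Of 10 iPSC markers, all were tested, and Pou5f1, which encodes Oct3/4, had signals between 8034 and 9793 in the 6 clones. Fbxo15 alone among them passed the test, higher in the (+)/(+) clones by 0.64 (log2, limma adjusted p = 0.0144), and did not pass without clone 5 or clone 6 (0.0507 and 0.0904) or with eBayes without trend (0.0674). Zfp42 (0.42, adjusted p = 0.0578) and Nanog (0.23, 0.129, both from limma) were also higher without overlap. That made 3 of the 10, against 10.5% of all tested probe sets. Of the 10 log2 fold changes 6 were above 0, with a median of 0.10. Below 0 were Utf1 (-0.34, adjusted p = 0.29), Esrrb (-0.16, 0.615), Klf4 (-0.04, 0.846) and Pou5f1 (-0.04, 0.848, all from limma). The summed signal of the 10 was 120464 to 126093 in the (−)/(+) and 134364 to 142927 in the (+)/(+) clones. The brightest markers weigh most in this sum, and Fbxo15 alone had group means of 13486 and 20844. Markers of fibroblasts, which are both the cell of origin and the feeder layer, moved with the groups. Of 24 fibroblast markers 20 were tested, 8 fell and 0 rose, against 1.77% of all probe sets lower. Their summed signal was 32068 to 42661 in the (−)/(+) and 21139 to 24808 in the (+)/(+) clones. The most intense were Vim, from 12897 to 7012 (adjusted p = 0.0113), Fn1, from 9808 to 7443 (0.0761), S100a6, from 4583 to 2734 (0.0188), and S100a4, from 3742 to 2047 (0.0597, all from limma), while Col1a1, Lum, Twist2 and Tagln lay under the filter. In bulk RNA, fewer cells of a type, feeder cells among them, and less RNA per cell cannot be told apart.

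p53 binds DNA as a tetramer at pairs of a decamer, the p53 half-site. Half-sites that match its consensus in every letter are shown because they are a feature of these genes that the choice of the list did not read from the arrays. The RefSeq promoter windows of GRCm38.p6, from 250 bases before to 50 after an annotated start, hold 6 of the 8 genes, the exceptions being Trp53inp1 and Zmat3. A half-site lay in the windows of 4 of the 6 genes and in 5 of their 10 windows, where 2 windows of Aen share the same match. It lay in 8.36% of all 32851 windows. For the further p53 targets and the p53 regulators described below it lay in 14.3% of 56 and 10% of 40 windows. The 8 genes were listed as p53 targets, so a share above that of all windows is no result of these data. The consensus reads alike on both strands, and capitals mark the half-site within 10 bases on either side.
Cdkn1a, chr17:29090896-29090925, plus strand: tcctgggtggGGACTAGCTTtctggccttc
Cdkn1a, chr17:29090918-29090947, plus strand: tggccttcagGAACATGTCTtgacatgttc
Mdm2, chr10:117710925-117710954, minus strand: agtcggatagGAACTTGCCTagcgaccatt
Ccng1, chr11:40755452-40755481, minus strand: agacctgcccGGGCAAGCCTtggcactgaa
Aen, chr7:78895927-78895956, plus strand: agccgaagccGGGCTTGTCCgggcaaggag
The 2 half-sites of Cdkn1a begin 73 and 51 bases upstream of the more distal of its annotated starts, and the windows printed share part of their flanks. In this search for matches in every letter they form a pair with a gap of at most 13 bases, which 0.0731% of all windows hold. Half-sites with a mismatch were not counted, also where they adjoin a match. Whether p53 binds these 2 as a pair was not tested. Those of Mdm2, Ccng1 and Aen begin 186, 185 and 121 bases upstream of a start. No match was found in the windows of Bbc3 and Phlda3, which says only that these letters are not in these windows.

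None of the 8 p53 targets changed in the adjusted test. Of their 17 probe sets 15 were bright enough to be tested, and 0 passed in limma, where 3.12% of all tested probe sets did. At an unadjusted p under 0.05 there was 1 of 15, Zmat3, against 21.2% of all. The groups did not overlap in 3 of 15, against 27.1% of all. The log2 fold changes of the 15 lay between -0.44 (Zmat3) and 0.40 (Bbc3), with 8 above 0 and a median of 0.05, beside a median of -0.05 and 42.4% above 0 over all tested probe sets. With each array scaled to a common median signal, the median of all tested probe sets moved up by 0.15 to 0.10, that of the 15 was 0.21, and 13 of them were above 0. The whole 95% interval lay within 2-fold either way for all 15 (89.2% of all tested) and within 1.5-fold for 12 (51% of all tested). In simulated data with 3 arrays a group and 200 changed probe sets, the test found 0% of 1.5-fold, 55% of 2-fold and 84.5% of 3-fold changes. The real data gave 703 calls, and with fewer changed probe sets the adjusted threshold is stricter. These shares are therefore not the power of the real comparison, which called Ephx1 at -0.54 (adjusted p = 0.0437 from limma), under 1.5-fold. The count of 0 still does not speak for small differences.

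**Figure D1:**
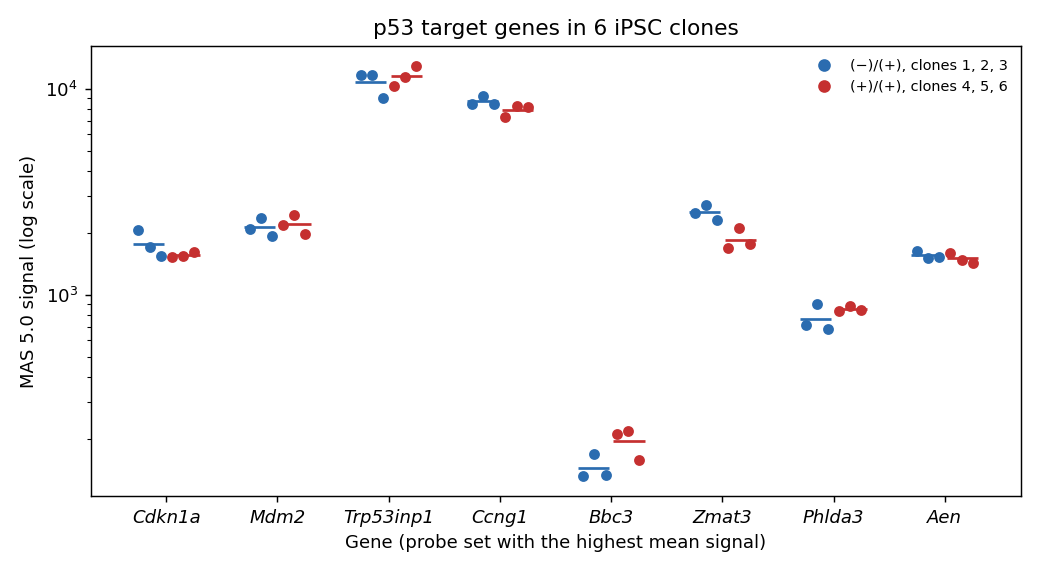
MAS 5.0 signal (y axis, log scale) of the 8 p53 targets in each clone, with the probe set of highest mean signal for each gene on the x axis. Blue stands for (−)/(+), red for (+)/(+), and lines mark the group means. The groups are apart for Zmat3 and, by a small margin, Ccng1, and they overlap in the other 6 genes. Heights of different genes come from different probes and are not comparable.

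Among the targets that arrest the cell cycle or act back on p53, none passed the test, and the log2 fold changes of their 9 tested probe sets lay between -0.17 and 0.26. Cdkn1a encodes p21, an inhibitor of cyclin-dependent kinases and the classical effector of p53-driven arrest. The brighter of its probe sets, 1424638_at, measured 2054, 1711 and 1541 for the (−)/(+) against 1523, 1535 and 1607 for the (+)/(+) clones, here and throughout in the order of the clone numbers. Clone 1 was the highest, and clone 3 lay among the (+)/(+) clones. The log2 fold change was -0.17 (standard error 0.12, 95% interval -0.45 to 0.10, adjusted p = 0.45 from limma). The second probe set, 1421679_a_at, had 1260 in clone 1 and between 735 and 958 in the other 5, so clone 1 stood highest in both. Without clone 1 the log2 fold change of 1424638_at was -0.06.

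Mdm2 encodes the ubiquitin ligase that marks p53 for degradation, and its own induction by p53 closes a feedback loop. Probe set 1423605_a_at had 2090, 2347 and 1924 in the (−)/(+) and 2185, 2430 and 1975 in the (+)/(+) clones, with both groups spanning the same range. The log2 fold change was 0.05 (standard error 0.12, 95% interval -0.21 to 0.32, adjusted p = 0.842 from limma). Probe set 1427718_a_at gave 0.16 (-0.12 to 0.45), with clone 3 lowest and clone 5 highest in both. The third, 1457929_at, was dim, with 25.5, 62.1 and 36.2 against 3.21, 41.3 and 4.81, and was not tested.

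Ccng1 encodes cyclin G1, a partner of protein phosphatase 2A that acts on Mdm2. Its 3 probe sets did not move together. Probe set 1420827_a_at had 8418, 9243 and 8401 in the (−)/(+) and 7280, 8228 and 8145 in the (+)/(+) clones. The groups did not overlap there, by a margin of 8401 against 8228 (exact permutation test, two-sided, p = 0.1, the smallest that 3 clones against 3 allow), and the log2 fold change was -0.14 (95% interval -0.34 to 0.05, adjusted p = 0.389 from limma). The other 2, 1450016_at and 1450017_at, overlapped between the groups, with log2 fold changes of 0.08 and -0.07. Ccng1 lies on chromosome 11, where 502 genes with a mean signal above 500 stood 0.27 (median log2) above the median of the 6 clones in clone 1 and between -0.06 and 0.02 in the others. Clone 1 was not the highest clone in any of the 3 Ccng1 probe sets. With the shift of its chromosome subtracted in each clone, the difference for 1420827_a_at was -0.0082, and with arrays scaled to a common median it was 0.018.

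Trp53inp1 encodes a stress-induced nuclear protein that promotes p53 activity and autophagy. Its bright probe set 1416926_at had 11702, 11669 and 9017 in the (−)/(+) and 10254, 11388 and 12817 in the (+)/(+) clones. Clone 3 was the lowest and clone 6 the highest, and the log2 fold change was 0.09 (95% interval -0.17 to 0.36, adjusted p = 0.688 from limma). The dimmer 1416927_at had 197, 214 and 172 against 227, 226 and 254. Here the groups did not overlap, with a log2 fold change of 0.26 (95% interval -0.09 to 0.61, adjusted p = 0.376 from limma).

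The apoptosis and survival targets did not pass the test either. Bbc3 encodes PUMA, a BH3-only protein that triggers the mitochondrial pathway of apoptosis. Its 1 probe set had 132, 168 and 133 in the (−)/(+) and 210, 219 and 158 in the (+)/(+) clones. Clones 4 and 5 were above all others, while clone 6 lay under clone 2. The log2 fold change of 0.40 was the highest of the 15, with the widest interval (-0.02 to 0.81, adjusted p = 0.258 from limma), at a signal not far above the filter. Aen encodes an apoptosis-enhancing nuclease. Its brightest probe set had 1635, 1513 and 1529 against 1599, 1470 and 1429, a difference of -0.06 (95% interval -0.29 to 0.18, adjusted p = 0.796 from limma), and with arrays scaled to a common median 0.10. Probe sets 1450506_a_at and 1437373_at gave -0.02 and 0.09. The fourth, 1451186_at, was not tested, with 48.1 to 59.8 in 5 clones and 2.24 in clone 6. Phlda3 encodes a pleckstrin homology-domain protein that holds back Akt. It had 709, 897 and 681 against 833, 885 and 839. The (+)/(+) clones were close together within the wider range of the (−)/(+) clones, and the log2 fold change was 0.17 (95% interval -0.13 to 0.47, adjusted p = 0.509 from limma).

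Zmat3 stood farthest from 0 of the 8 genes. It encodes a zinc-finger protein that binds RNA and acts on the stability and splicing of transcripts in the p53 response. Its 1 probe set had 2482, 2732 and 2306 in the (−)/(+) and 1684, 2098 and 1753 in the (+)/(+) clones. All 3 (+)/(+) clones lay under all 3 (−)/(+) clones, clone 2 being the highest and clone 4 the lowest. The group means were 2507 ± 214 and 1845 ± 222 (SD, n = 3 each), a ratio of 0.736. The log2 fold change was -0.44 (standard error 0.12, 95% interval -0.71 to -0.18), and it did not pass the adjusted test (adjusted p = 0.0739 from limma; exact permutation test, two-sided, p = 0.1, the smallest possible). It passed when arrays were weighted by quality (adjusted p = 0.0471), a fit that called 2527 probe sets in all, and under no other alternative. With arrays scaled to a common median the difference was -0.28 (adjusted p = 0.163). The fibroblast markers were lower in the same clones. Their summed signal was 32068 to 42661 in the (−)/(+) and 21139 to 24808 in the (+)/(+) clones. The part of the fibroblast markers in the Zmat3 difference was not tested.

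**Figure D2:**
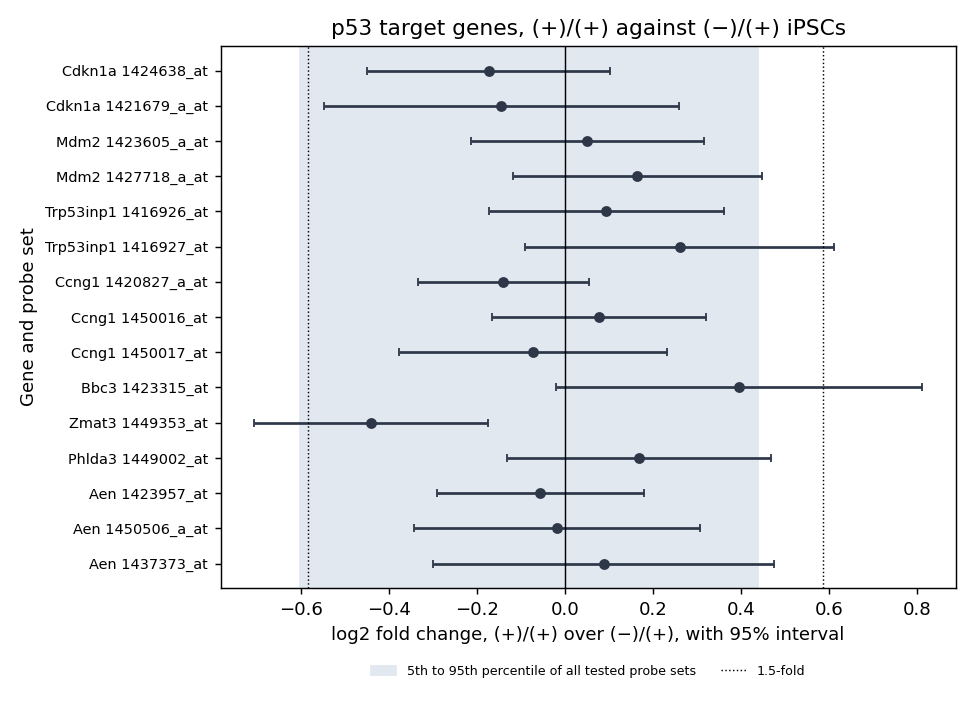
Log2 fold change, (+)/(+) over (−)/(+), of the 15 tested probe sets (y axis) where bars span limma's 95% interval with 3 clones in each group. The grey band spans the 5th to 95th percentile of all 22518 tested probe sets (-0.60 to 0.44) and the dotted lines stand at 1.5-fold. Only the interval of Zmat3 excludes 0, and those of Zmat3, Bbc3 and 1416927_at of Trp53inp1 reach past 1.5-fold.

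The clones of a group also differed among themselves, although with 1 array per clone a difference between clones cannot be told from one of culture or measurement. The highest over the lowest signal among the 6 clones was 1.14 to 1.71 for the 15 probe sets, with a median of 1.35, and had a median of 1.55 over all tested probe sets. The standard deviation within groups had a median of 0.15 on the log2 scale for the 15, against 0.19 over all. Clone 3 was the lowest of the 6 in 6 of the 15 probe sets, of Mdm2, Trp53inp1, Ccng1 and Phlda3, and clone 4 in 5. Clone 2 was the highest in 5, and clone 4 in 0. The median deviation from the median of the 6 clones was -0.17 for clone 3 and between -0.02 and 0.06 for the others. Several of these probe sets share a gene and are not independent of each other. No clone raised or lowered all of the targets: in clone 1 Cdkn1a stood at 0.38 and Bbc3 at -0.27, and in clone 4 Bbc3 stood at 0.33 and Zmat3 at -0.38.

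**Figure D3:**
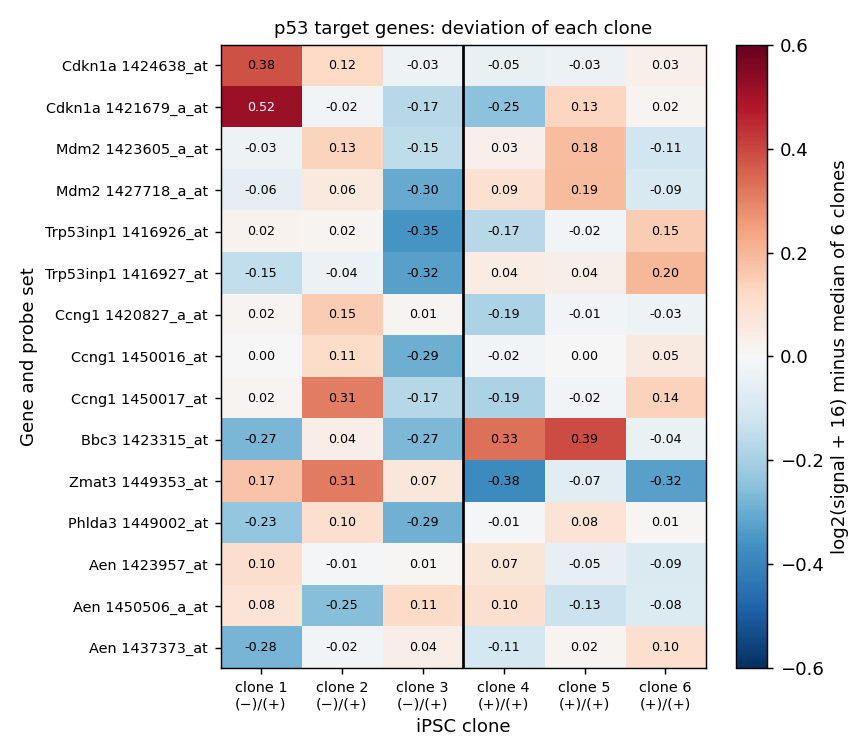
Deviation of each clone (x axis) from the median of the 6 clones, as log2(signal + 16), for the 15 tested probe sets (y axis), with red above and blue below the median. Clone 3 is below the median for both probe sets each of Mdm2 and Trp53inp1, and Zmat3 is above it in all 3 (−)/(+) and below it in all 3 (+)/(+) clones.

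The wider pathway gave few calls as well. Of 31 regulators of p53, 30 were measured and 28 tested, and 0 passed with the brightest probe set of each gene in limma, with 3 higher and 5 lower at an unadjusted p under 0.05, where 8.4% and 12.8% of all tested probe sets were. Their median log2 fold change was -0.11, beside -0.05 over all tested probe sets. The 2 with the highest signal were Npm1, which encodes a nucleolar protein that can hold Mdm2 (27008 ± 1754 and 30241 ± 3426, adjusted p = 0.352), and Rpl11, which encodes a ribosomal protein that inhibits Mdm2 (23911 ± 837 and 25849 ± 2129.7, adjusted p = 0.454; SD, n = 3 each, both from limma). The following, which had an unadjusted p under 0.05 in the brightest probe set in limma, were named after their values were seen. Topors, which encodes a ligase that can act on p53, rose in 2 of its 3 probe sets, by 0.47 and 0.51 (adjusted p = 0.0397 and 0.0442 from limma), and had 0.28 in the brightest one (0.116). Mdm4, the partner of Mdm2 in holding p53 back, had 2486, 3285 and 2265 against 1897, 2311 and 2122, with overlapping groups and a log2 fold change of -0.33 (adjusted p = 0.227 from limma), and its other 2 tested probe sets had -0.07 and -0.27 (adjusted p = 0.847 and 0.533). The checkpoint kinase gene Chek1 had 0.29 in its brightest probe set (adjusted p = 0.146 from limma) and 0.15 and -0.018 in the other 2 tested (0.461 and 0.954). Chek2, with 1 probe set, had -0.30 (adjusted p = 0.207 from limma). The kinase gene Hipk2 had -0.66 (adjusted p = 0.0769 from limma) in its brightest probe set, -0.50 and -0.66 in 2 others and -0.01, 0.00 and -0.14 in the remaining tested ones. Crebbp had -0.31, -0.33 and -0.45 in its tested probe sets (adjusted p = 0.161, 0.219 and 0.194 from limma). With 1 probe set each, Daxx had -0.30 and Sirt1 0.23 (adjusted p = 0.232 and 0.182 from limma).

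Of 50 further p53 targets, 48 were measured and 46 tested with the brightest probe set of each, 1 rose and 2 fell in limma, against 1.35% of all probe sets higher and 1.77% lower. At an unadjusted p under 0.05, 6 were higher and 2 lower, beside 8.4% and 12.8% of all tested probe sets. The median log2 fold change was -0.09. By role, 1 of 7 arrest genes rose, 1 of 9 tested genes of metabolism and redox fell, 1 of 12 genes of feedback and other roles fell, and none of 10 apoptosis and 8 DNA repair genes passed, where 1 of each list had an unadjusted p under 0.05.

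Gadd45a, a stress-inducible gene of growth arrest and DNA repair, had 1300, 1714 and 1258 in the (−)/(+) and 2785, 2071 and 2022 in the (+)/(+) clones. All 3 (+)/(+) clones were above all 3 (−)/(+) clones, and clone 4 was the highest. It rose with a log2 fold change of 0.68 (95% interval 0.33 to 1.03, adjusted p = 0.0491 from limma). The call is at the threshold and was absent without clone 1, 3, 4, 5 or 6 (adjusted p = 0.0776, 0.156, 0.123, 0.0971 and 0.13), and present without clone 2 (0.0315). Lpin1 encodes lipin, a phosphatidate phosphatase of lipid synthesis, and had 1231, 1538 and 1210 against 583, 830 and 745. The groups were apart, and it fell by 0.87 (95% interval -1.22 to -0.53, adjusted p = 0.0209 from limma), and a second probe set fell by 0.73 (adjusted p = 0.0278). Without clone 3, 4, 5 or 6 the brighter probe set did not pass (adjusted p = 0.0565, 0.0594, 0.0511 and 0.0941). Ephx1 encodes an epoxide hydrolase of detoxification and had 712, 757 and 778 against 504, 535 and 489. The groups were again apart, and it fell by 0.54 (95% interval -0.81 to -0.27, adjusted p = 0.0437 from limma). It passed without clone 1 (0.0428) and not without clone 2, 3, 4, 5 or 6 (0.0848, 0.144, 0.0971, 0.0977 and 0.176). The calls also depended on the scaling. With quantile normalization and with a common median, Lpin1 passed (adjusted p = 0.0295 and 0.0227) and Ephx1 did not (0.0672 and 0.0899). Gadd45a passed with a common median alone of these (0.0612 and 0.0238, all from limma). The part of the fibroblast markers in these 3 differences was not tested.

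**Figure D4:**
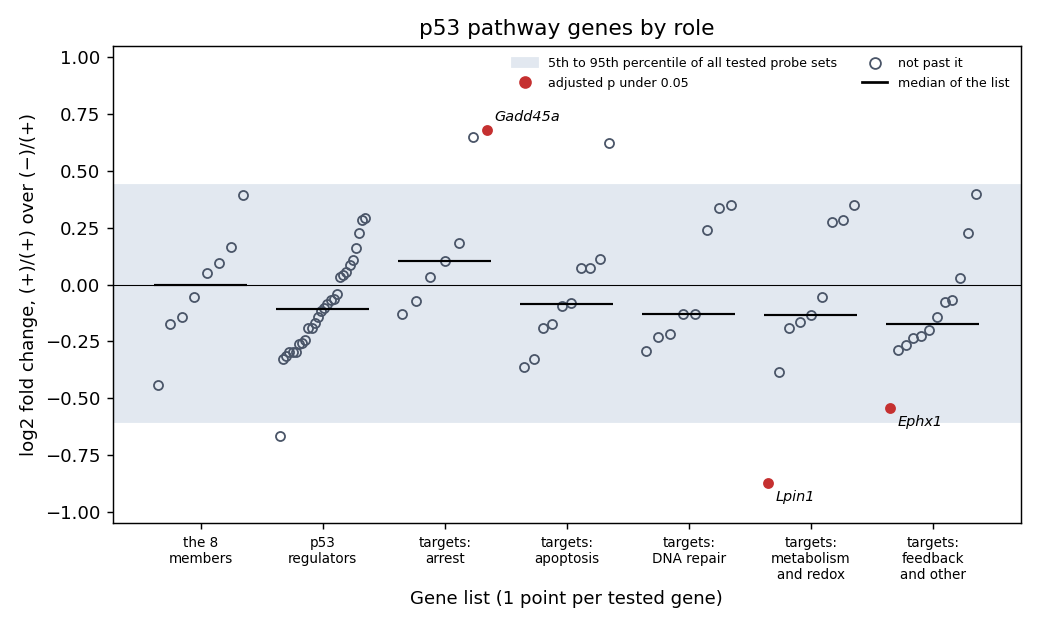
Log2 fold change, (+)/(+) over (−)/(+) (y axis), of each tested gene of the p53 pathway by role (x axis), with filled red points for an adjusted p under 0.05 from limma, open points for the rest, black lines at the medians and a grey band for the 5th to 95th percentile of all tested probe sets. Only Gadd45a, Lpin1 and Ephx1 are filled, and the 8 members run from -0.44 to 0.40.

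The genes with the highest signal in the roles without a call were Pmaip1 and Siva1 for apoptosis and Pcna and Ercc5 for DNA repair. Pmaip1, which encodes the BH3-only protein NOXA, had 6437, 11653 and 8401 against 8650, 9691 and 9492 (log2 fold change 0.11, adjusted p = 0.746 from limma), so the 3 (+)/(+) clones lay within the range of the others. Siva1, which encodes a pro-apoptotic protein, had 5886, 7402 and 5939 against 5503, 5840 and 5604 (-0.17, adjusted p = 0.372 from limma), so that the groups did not overlap here, while they overlapped in its other 3 probe sets. Pcna, the sliding clamp of DNA replication, had 17878, 17633 and 19935 against 22955, 19878 and 22625 (0.24, adjusted p = 0.144 from limma), with clone 3 above clone 5. Ercc5, which encodes a nuclease of nucleotide excision repair, had 963, 1276 and 884 against 966, 936 and 911 (-0.13, adjusted p = 0.641 from limma).

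**Figure D5:**
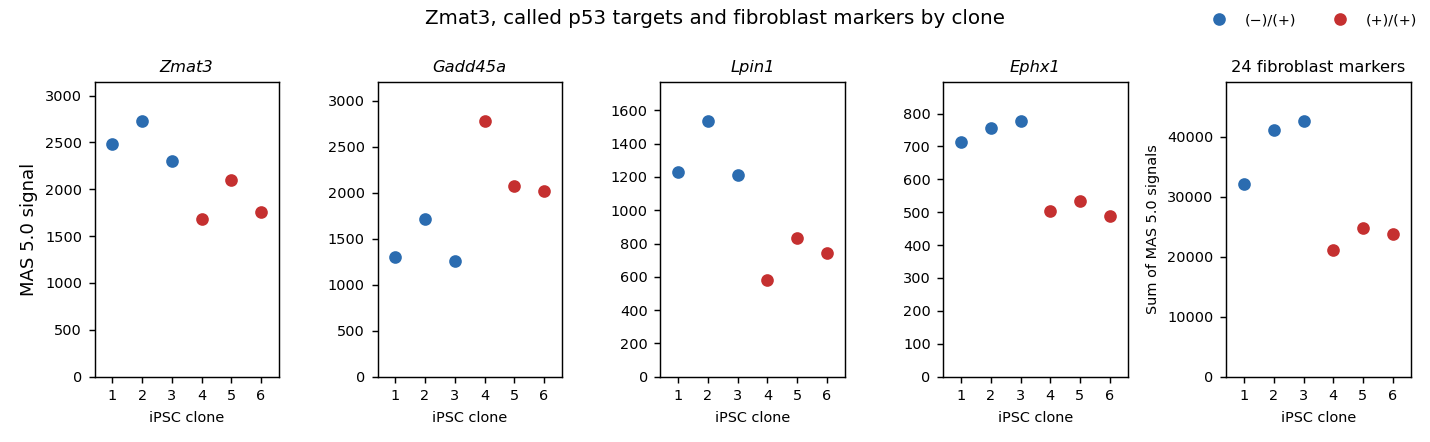
MAS 5.0 signal (y axes, from 0) of Zmat3, Gadd45a, Lpin1 and Ephx1 and the summed signal of 24 fibroblast markers in each clone (x axis). Blue stands for (−)/(+) and red for (+)/(+). Gadd45a is higher and the other 4 panels are lower in all 3 (+)/(+) clones.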

How the data were processed

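Total RNA of 6 iPSC clones was labelled with biotin and hybridised to 1-colour Affymetrix Mouse Genome arrays. The authors quantified each probe set with the MAS 5.0 method and deposited signal intensity values on a linear scale, scaled to one trimmed mean (highest and lowest 2% left out). The software version was not given in the sources used here, and probe-level intensities, presence calls and scan dates were not analysed here, so a batch that follows the groups cannot be told apart from them. The number of arrays limits the precision.
After 64 control probe sets were left out, 34945 probe sets had 1 gene symbol, 932 several and 9160 none in the array annotation. Of those with 1 symbol, 34741 matched a gene of RefSeq (GRCm38.p6) and 0 symbols changed. Signals were converted to log2(signal + 16), on which changes of low signals appear smaller than they are, and compared with limma 3.58.1 (lmFit, eBayes with trend) in R 4.3.3 on group alone. Simulated data with 200 changed probe sets of 22518 were used to check the test. Clone numbers are not shared between groups. The genes, lists and tests were chosen with earlier results of these data known. Genes outside the list were named by rule: called genes of each further list (up to 4) or, with none called, the 2 with the highest signal, and the 4 fibroblast markers with the highest signal. The p53 regulators named beyond this rule, and the iPSC markers Nanog, Zfp42, Utf1, Esrrb and Klf4, were named after their values were seen. The rule also asked for genes that resemble p53's own transcript, which is not reported here. Promoter windows came from RefSeq and were searched for the p53 half-site, a decamer, and for pairs with a gap of at most 13 bases. The alternatives were other scalings, pseudocounts, filters, variance models, weights, the methods' t-test, subtraction of chromosome shifts and leaving out each clone, and, added after the data were examined, leaving out clones 1 and 4. Plots used matplotlib 3.10.9 in Python 3.11.15.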

Additional observations from a re-analysis of the deposited data

How the results depend on the processing

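The 8 targets gave 0 called probe sets under every alternative except array weights, which called 1 (Zmat3). Of 143 log2 fold changes of the 8 genes under 18 alternatives, 135 kept their direction and their side of the threshold, 1 newly passed (Zmat3) and 7 changed sign, all uncalled. These were Mdm2 (-0.017 without clone 3, -0.024 without clone 5, and -0.024 to 0.13 over all clones left out in turn, -0.25 with the mean of all its probe sets, where the dim one counts as much as the others), Trp53inp1 (-0.014 with quantile normalization, -0.031 without clone 3, and -0.031 to 0.17 over all clones left out in turn), Ccng1 (0.018) and Aen (0.10), both with a common median. Regulators had 0 calls except 2 with a common median (Chek1 and Topors) and 4 with array weights. Further targets, with 3 calls, had 1 with quantile normalization, 1 with no filter, 0 with eBayes without trend, 0 with the methods' t-test after Benjamini-Hochberg adjustment, 1 without clones 1 and 4, and 0 to 2 with 1 clone left out. Fibroblast markers, with 8, had 5 with no filter, 4 above a signal of 500, 4 with eBayes without trend, 13 with array weights, 0 with the methods' t-test, 5 with gene means, and 1 to 10 with 1 clone left out (1 without clone 6). All probe sets, with 703 calls, had 1155 with a common median, where 79.4% were higher against 43.4%, 221 with no filter, 380 above a signal of 500, 265 with eBayes without trend, 2527 with array weights, 1 with the methods' t-test, and 52 to 953 with 1 clone left out (52 without clone 6). The cause was not tested, except that dropping the filter raises and a signal above 500 lowers the number tested. At an unadjusted p under 0.05, the methods' t-test held 1 of the 15 probe sets of the 8 targets and 17.8% of all, and its thresholds of 2.5-fold and a mean signal above 500 held 0 of the 15 and 0.16% of all. No paired analysis was possible because the groups share no clone number. In simulated data with 3 arrays a group and 200 changed probe sets, 0% of 1.5-fold changes were called. Fewer changed probe sets make the adjusted threshold stricter there than in the real data with 703 calls.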
